A study of Homo sapiens with 6 samples.

Results

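The 10 genes described here, CDH1, CDH2, VIM, SNAI1, SNAI2, TWIST1, ZEB1, ZEB2, EPCAM and ESRP1, mark the epithelial or the mesenchymal state of a cell. They were taken by gene symbol, and all 10 were found among the 20522 genes listed for each library and among the 20322 genes of a table with 1 column per group. The data were mRNA-seq of K1, a human papillary thyroid carcinoma cell line, transfected with a negative control siRNA (NC, 3 libraries) or with an siRNA against NEAT1_2, the long transcript of the lncRNA NEAT1 (si-NEAT1_2, 3 libraries). Both groups thus carried a transfected siRNA, and the time between transfection and RNA extraction for these libraries was not given in the sources used here. The study asked which genes lie downstream of NEAT1_2. The level of NEAT1 was not analysed here, and how far the siRNA lowered it is not known from these values.

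Epithelial cells are held together by E-cadherin at adherens junctions, whereas mesenchymal cells carry N-cadherin and a vimentin skeleton and migrate as single cells. The passage from the first state to the second, the epithelial-mesenchymal transition, is driven by transcription factors of the Snail, Twist and ZEB families, which bind short DNA sequences called E-boxes and repress epithelial genes such as CDH1 and ESRP1. In carcinomas of the thyroid and of other epithelia this programme is known for its link with invasion, and many tumour cells hold markers of both states.

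Of the 10 genes, VIM, CDH2 and SNAI2 were the most abundant in K1 cells of both groups. VIM was among the most abundant mRNAs of the cell, CDH2 exceeded CDH1 at least 110.8-fold per length in every library, and ESRP1 was at or near 0. Between the groups, 0 of the 9 members that could be tested were called by edgeR, a test of counts across all genes, and 0.0% of all genes were called in either direction. The member with the largest difference was ZEB1, whose level was 53.6% lower in the si-NEAT1_2 libraries (log2 fold change -1.11, SE 0.280, n = 3 per group) and lower in each of them than in any NC library. Such a separation, lower in si-NEAT1_2, was found in 14.1% of all genes tested, and picking the largest difference favours it. DESeq2 called ZEB1, as it called 0.343% of all genes lower. A correction for GC content and transcript length brought the difference to 35.1% (log2 fold change -0.62).

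The total count ranged from 22798631 to 27066025 per library. Of the 8 thyroid follicular markers, 4 reached an FPKM (the authors' measure of expression, scaled for transcript length and mapped reads) of 1 in at least 1 library, PAX8 the highest of them, while TSHR, SLC5A5 and NKX2-1 stayed under 0.1 in all 6. NC replicate 2 and si-NEAT1_2 replicate 2 stood apart from the rest. On the first principal component, which held 55.1% of the variance of log2 CPM, they lay at -43.3 and 52.7, with the other 4 libraries between -15.0 and 15.9. The deviation of a gene from its mean over the libraries followed the GC content of its transcript to a degree that differed by library. The Spearman rho across genes was -0.26, -0.66 and -0.35 in NC and -0.15, 0.52 and 0.62 in si-NEAT1_2, by replicate number. The last of these, si-NEAT1_2 replicate 3, did not stand apart on this component. For transcript length the rho was 0.28, 0.50 and 0.36 in NC and 0.14, -0.66 and -0.13 in si-NEAT1_2. On the component and in both rho, all NC libraries lay on the same side of all si-NEAT1_2 libraries. The trends thus went with the group. The values below are therefore given with each library and, where it matters, with 1 of the second replicates left out. No fit left out both of them, and leaving out 1 does not part the trend from the group.

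To set the levels of different genes side by side, FPKM was used. Mean FPKM over the 6 libraries was 2688 for VIM, 42.8 for CDH2, 17.0 for SNAI2, 5.43 for SNAI1, 4.37 for ZEB1, 1.49 for EPCAM and for ZEB2, 1.08 for TWIST1, 0.198 for CDH1 and 0.010 for ESRP1. The ranges over the 6 libraries did not overlap between VIM, CDH2 and SNAI2, nor between SNAI2 and SNAI1. The ranges of SNAI1 and ZEB1 overlapped, and SNAI1 was the higher in 4 of the 6 libraries. The ranges of EPCAM, ZEB2 and TWIST1 overlapped as well. Within libraries, EPCAM was above TWIST1 in 6 of 6 and above ZEB2 in 3 of 6, and ZEB2 was above TWIST1 in 5 of 6. By mean FPKM of the NC libraries, 99.9% of 19684 genes lay below VIM, 90.9% below CDH2, 79.4% below SNAI2 and 36.4% below CDH1. The mesenchymal structural members VIM and CDH2 were thus in the upper part of the K1 transcriptome, and E-cadherin in the lower part. Of 28 other epithelial genes, 14 had a mean FPKM of at least 1, among them MAL2 (52.0 to 89.3 over the libraries), DSP (10.6 to 23.6) and ELF3 (5.43 to 9.05). The other 14 were lower, and 3 of them, OVOL1, OVOL2 and GRHL2, stayed under 0.1 in every library. Of 28 other mesenchymal genes, 19 had a mean FPKM of at least 1. The other 9 were lower, and 3 of them, FOXC2, GSC and FAP, stayed under 0.1 in every library.

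**Figure D1:**
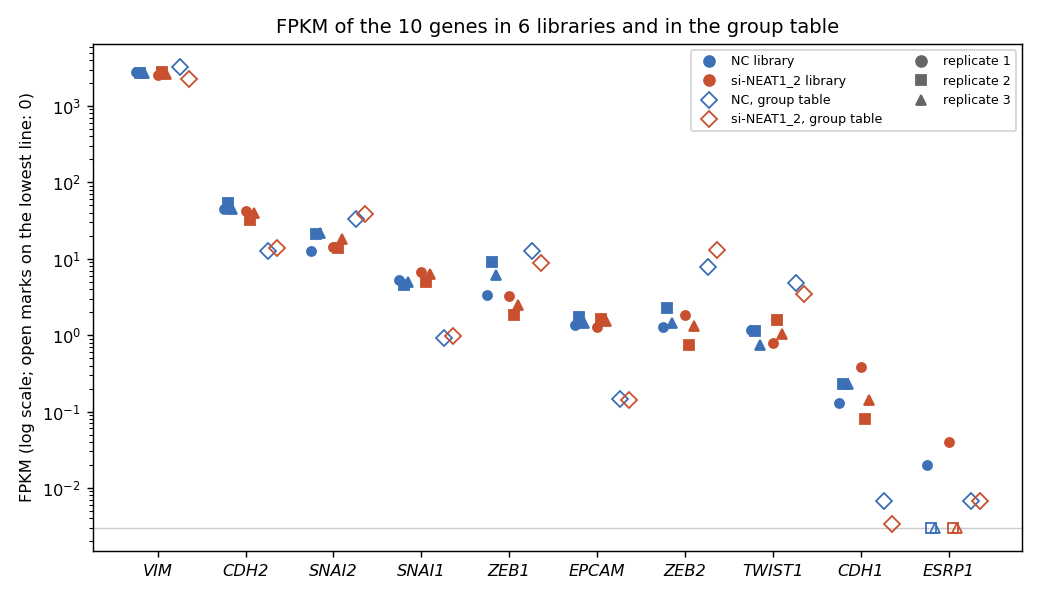
FPKM of each gene on a log scale, genes ordered by their mean over the 6 libraries, with filled marks for single libraries (NC blue, si-NEAT1_2 orange, shape by replicate) and open diamonds for the 2 columns of the group table. VIM lies at 2576 or above in every library and ESRP1 at or below 0.04, and the diamonds of CDH2, SNAI1, EPCAM and CDH1 fall below the library marks while those of ZEB1, ZEB2 and TWIST1 lie above most of them.

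Of the cadherins, CDH1 (ENSG00000039068, chromosome 16 of GRCh38 from 68737225 to 68835548, plus strand) encodes E-cadherin, the adhesion protein of epithelial junctions. Its expected counts were 14, 21 and 15 in the 3 NC libraries, in the order of their replicate numbers, and 29, 9 and 14 in the si-NEAT1_2 libraries. The highest and the lowest library both belonged to the si-NEAT1_2 group, and the NC values lay between them. The exact 95% Poisson interval, which covers counting error only, was 19.4 to 41.6 counts for the highest and 4.12 to 17.1 for the lowest. In TMM CPM, counts scaled to a common library size with the most divergent genes set aside, CDH1 was 0.661 ± 0.202 in NC and 0.706 ± 0.420 in si-NEAT1_2 (SD, n = 3 each). A difference was not detectable at this depth (log2 fold change 0.10, SE 0.526).

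CDH2 (ENSG00000170558, chromosome 18 from 27950966 to 28177446, minus strand) encodes N-cadherin, the cadherin of mesenchymal and neural cells. It reached a TMM CPM of 182.8, 210.5 and 178.0 in the NC libraries and of 170.6, 141.7 and 166.0 in the si-NEAT1_2 libraries. Every si-NEAT1_2 library was below every NC library, with si-NEAT1_2 replicate 2 the lowest and NC replicate 2 the highest. The difference was -0.26 on the log2 scale (SE 0.129), with a p of 0.239 after Benjamini-Hochberg adjustment over 13109 genes in the quasi-likelihood (QL) test of edgeR, and so did not pass. The FPKM ratio of CDH2 to CDH1 ranged from 110.8 to 406, with both ends in the si-NEAT1_2 group. Its mean was 255 ± 76.9 in NC and 268 ± 148 in si-NEAT1_2 (SD, n = 3), and its denominator rests on the few CDH1 counts above.

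VIM (ENSG00000026025, chromosome 10 from 17228259 to 17237593, plus strand) encodes vimentin, the intermediate filament protein of mesenchymal cells. Its TMM CPM was 5031, 4807 and 4952 in NC and 4685, 5585 and 4940 in si-NEAT1_2. The 3 NC values fell inside the range of the si-NEAT1_2 values, and the log2 fold change was 0.04 (SE 0.141; edgeR QL test, Benjamini-Hochberg adjusted p = 0.874). The FPKM ratio of VIM to EPCAM stayed between 1545 and 2037 in all 6 libraries. The genes with the pattern most like VIM, by the root mean square difference of centred log2 TMM CPM over the 6 libraries among 9469 genes, were HARS (0.00889), PDK3 (0.0111) and LRRC59 (0.0177).

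Of the transcription factors, SNAI1 (ENSG00000124216, chromosome 20 from 49982999 to 49988886, plus strand) encodes Snail, a zinc finger repressor of CDH1. It reached a TMM CPM of 8.79, 7.47 and 8.22 in NC and of 11.0, 8.95 and 10.6 in si-NEAT1_2. It was the only member higher in every si-NEAT1_2 library than in every NC library by TMM CPM. The gap between the groups was that between NC replicate 1 and si-NEAT1_2 replicate 2, and it closed when library totals were used without TMM scaling. In FPKM the groups overlapped, with 5.28, 4.58 and 4.97 in NC and 6.66, 4.89 and 6.23 in si-NEAT1_2. The log2 fold change was 0.32 (SE 0.177; edgeR QL test, Benjamini-Hochberg adjusted p = 0.274).

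SNAI2 (ENSG00000019549, chromosome 8 from 48917604 to 48921740, minus strand) encodes Slug, the second Snail family repressor, and was the most abundant of the 5 transcription factors. Its TMM CPM was 24.95, 32.3 and 37.6 in NC and 27.4, 30.2 and 30.0 in si-NEAT1_2. The si-NEAT1_2 values lay within the NC range (log2 fold change -0.12, SE 0.167). The FPKM ratio of SNAI2 to SNAI1 was 3.78 ± 1.22 in NC and 2.64 ± 0.430 in si-NEAT1_2 (SD, n = 3), above 1 in each of the 6 libraries.

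TWIST1 (ENSG00000122691, chromosome 7 from 19020991 to 19117672, minus strand) encodes a basic helix-loop-helix factor of the mesoderm. It was counted 53, 43 and 31 times in NC and 32, 68 and 43 times in si-NEAT1_2. The groups overlapped, and the log2 fold change of 0.24 was smaller than its SE of 0.377. Without si-NEAT1_2 replicate 2, the library with the most TWIST1 counts, it was -0.14.

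ZEB1 (ENSG00000148516, chromosome 10 from 31318495 to 31529814, plus strand) encodes a zinc finger and homeodomain repressor of epithelial genes. Its expected counts were 414, 758 and 571 in the NC libraries and 304, 175 and 311 in the si-NEAT1_2 libraries. In TMM CPM these were 15.1, 32.2 and 22.1 against 12.4, 7.35 and 12.4. The groups did not overlap, but the lowest NC library and the highest si-NEAT1_2 library were close, and the spread among the NC libraries was over 2-fold. The mean was 23.1 ± 8.57 in NC and 10.7 ± 2.92 in si-NEAT1_2 (SD, n = 3), a 2.15-fold lower level in si-NEAT1_2. The unadjusted p of the edgeR QL test was 0.0022 and the Benjamini-Hochberg adjusted p over all genes tested was 0.170, so the difference did not pass.

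Whether ZEB1 was called depended on the test. DESeq2 gave the same size (log2 fold change -1.12) with an adjusted p of 0.0149 and so called it. Over the 17 alternatives the adjusted p ranged from 0.0149 to 0.557, and the log2 fold change from -1.36 to -0.61, below 0 in all of them. Without NC replicate 2 it was -0.80 (edgeR QL test, adjusted p = 0.557), and without si-NEAT1_2 replicate 2 it was -0.91 (adjusted p = 0.267). The labels carry a library code. Within code L2, with 2 NC libraries and 1 si-NEAT1_2 library, the difference in ZEB1 was -1.86 on the log2 scale, and within code L3, with 1 of each, it was -0.28.

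ZEB2 (ENSG00000169554, chromosome 2 from 144364364 to 144524583, minus strand) encodes the close paralog of ZEB1. Its TMM CPM was 6.20, 8.23 and 6.44 in NC and 6.18, 4.07 and 6.04 in si-NEAT1_2. The groups were apart only by the step between NC replicate 1 and si-NEAT1_2 replicate 1, and in FPKM they overlapped. The log2 fold change was -0.35 (SE 0.230; edgeR QL test, Benjamini-Hochberg adjusted p = 0.339). The FPKM ratio of ZEB1 to ZEB2 was 2.64, 3.98 and 4.20 in NC and 1.76, 2.46 and 1.90 in si-NEAT1_2, so that ZEB1 was the more abundant of the pair in all 6 libraries and the ratio was lower in each si-NEAT1_2 library than in any NC library. FPKM depends on the transcript length that the authors' quantification assigned in each library. For ZEB1 the length implied by CPM and FPKM varied between 3.63 and 5.01 kb, for ZEB2 between 3.42 and 5.08 kb, for CDH1 between 2.58 and 4.36 kb and for SNAI2 between 1.58 and 2.01 kb. For SNAI1, VIM, TWIST1 and CDH2 the longest was at most 1.04 times the shortest.

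**Figure D2:**
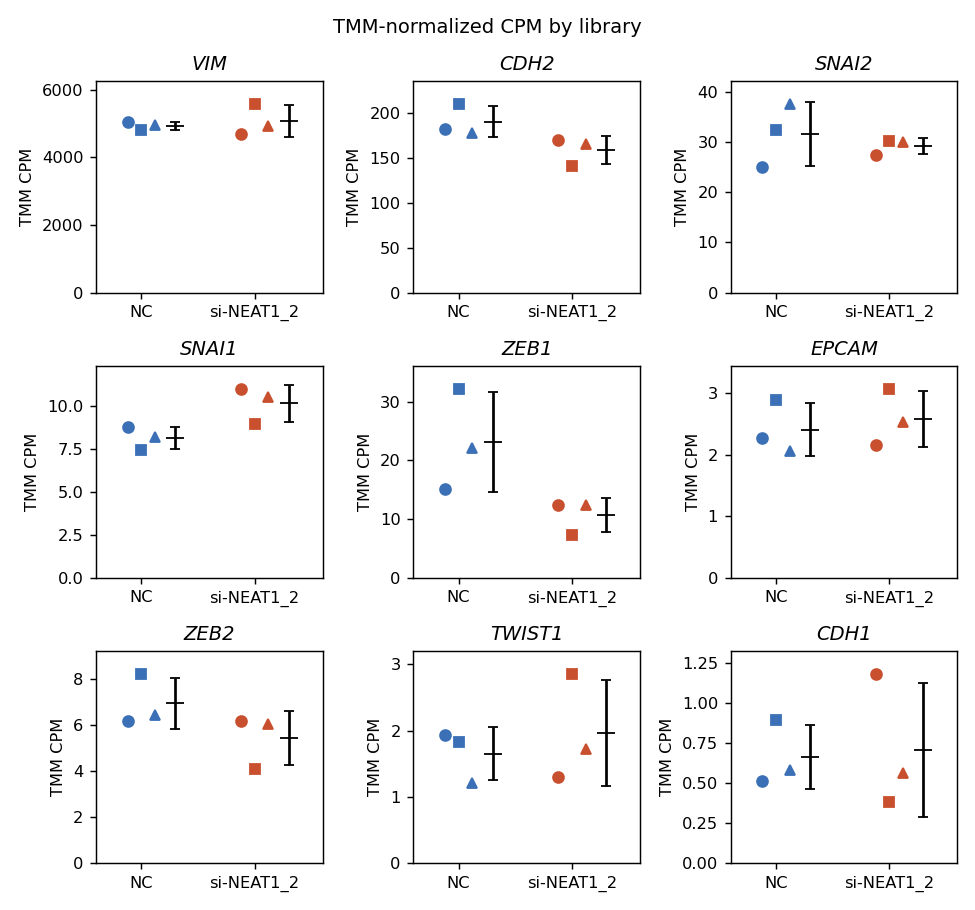
TMM CPM of the 9 genes that passed the filter on low counts, in each NC and si-NEAT1_2 library (marks by replicate as circle, square and triangle), with the mean and SD of each group as a bar, each axis starting at 0. The ZEB1, CDH2 and ZEB2 marks of si-NEAT1_2 lie below all NC marks, the SNAI1 marks lie above them, and the other 5 genes overlap.

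Of the epithelial markers, EPCAM (ENSG00000119888, chromosome 2 from 47345158 to 47387601, plus strand) encodes an adhesion protein of the epithelial surface. It was counted 62, 68 and 53 times in NC and 53, 73 and 63 times in si-NEAT1_2. The groups overlapped, with FPKM between 1.27 and 1.73 in all libraries and a log2 fold change of 0.11 (SE 0.287). The genes with the pattern most like EPCAM, measured as for VIM among 9470 genes, were ITGB3BP (0.0752), CREM (0.0879) and MRPS9 (0.0886).

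ESRP1 (ENSG00000104413, chromosome 8 from 94641074 to 94707466, plus strand) encodes a splicing factor that maintains the epithelial forms of many mRNAs. It had 2 counts in NC replicate 1, 2 counts in si-NEAT1_2 replicate 1 and 0 in the other 4 libraries. In those 4, a count of 0 allows a level of up to between 0.116 and 0.132 CPM (3 counts). It was the 1 member removed by the filter on low counts. In the fit with no filter its log2 fold change was 0.07 with an SE of 1.81, so these counts do not inform on a difference.

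In the comparison of the groups, 0 of the 9 members tested were called by the edgeR QL test, with 0.05 as the limit of the adjusted p and 2 as the lowest fold change, and 0.0% of the 13109 genes were called in either direction. At an unadjusted p under 0.05 the count was 1 member lower, ZEB1, and 0 higher, where 12.9% of all genes were lower and 11.2% higher. DESeq2 called 15 genes higher and 45 lower (0.114% and 0.343% of 13109), among them ZEB1 and no other member. It gave no adjusted p to 2289 genes, CDH1, TWIST1 and EPCAM among them, and so could not call these. ZEB1 was also past a 2-fold difference, as were 1.32% of all genes in the lower direction, and 0.961% of all genes were both past it and at an unadjusted p under 0.05. By TMM CPM the groups did not overlap in 3 members that were lower, ZEB1, CDH2 and ZEB2, and in 1 that was higher, SNAI1. Such a separation was found in 14.1% of all genes lower and 15.4% higher. The exact two-sided permutation p for each of these 4 was 0.10, the smallest that 3 libraries against 3 can give. The labels do not say whether libraries of a group came from separate cultures, so p-values measure the spread between these samples, which may be technical. In bulk RNA, fewer cells expressing a gene and less of its mRNA per cell cannot be told apart.

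The members with separated groups differed in composition as well. ZEB1 and ZEB2 have long transcripts of low GC content. The longest coding ZEB1 transcript has 6267 bases and 38.5% GC, with only 8.59% of genes lower in GC, and that of ZEB2 has 9583 bases and 39.1% GC. SNAI1, with 1686 bases and 58.2% GC, lies at the other side. The trend fitted for GC content and length in each library, over all genes, gave a difference of -0.47 between si-NEAT1_2 and NC for ZEB1, -0.53 for ZEB2, -0.16 for CDH2 and 0.36 for SNAI1 on the log2 scale. The observed deviation of ZEB1 from its mean was 1.08 in NC replicate 2, where the trend was 0.50, and -1.04 in si-NEAT1_2 replicate 2, where the trend was -0.55. In NC replicate 1 the observed deviation was -0.01 and the trend 0.04, and in si-NEAT1_2 replicate 1 they were -0.29 and 0.06.

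With this trend taken out, the log2 fold change of ZEB1 was -0.62 (SE 0.172; edgeR QL test, Benjamini-Hochberg adjusted p = 0.187). That of ZEB2 was 0.16 and that of SNAI1 was -0.02, both turned in direction. CDH2 stood at -0.10 (SE 0.0731). VIM stood at -0.21 (SE 0.0633), with an unadjusted p of 0.0063 and an adjusted p of 0.201 from the same test, and 7.95% of all genes were lower at an unadjusted p under 0.05 in this fit. The part of GC content and length in these differences was not tested beyond this correction. The trend itself differed between the groups, so the correction cannot tell it apart from an effect of the siRNA.

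**Figure D3:**
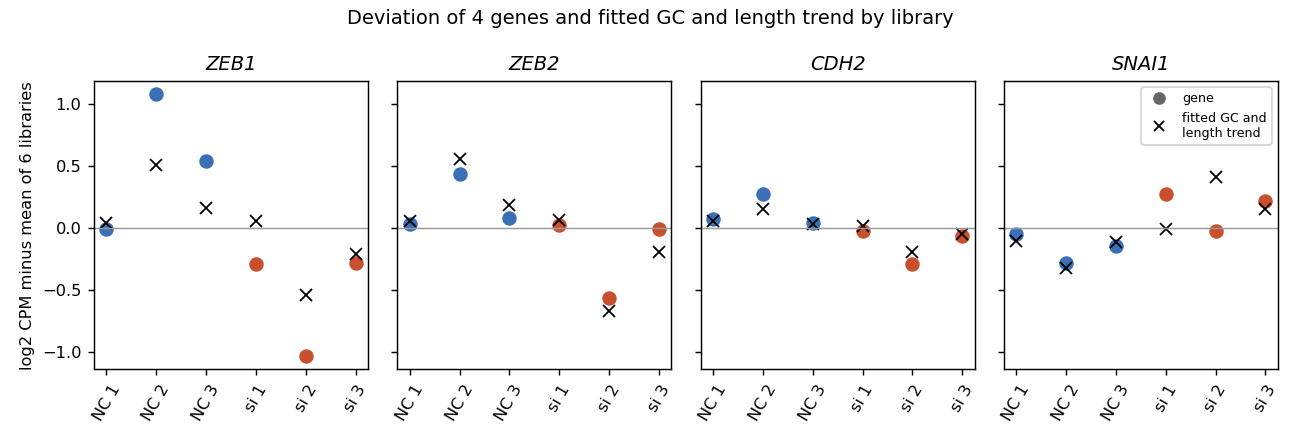
Deviation of log2 CPM from the mean of the 6 libraries for ZEB1, ZEB2, CDH2 and SNAI1 (dots, NC blue and si-NEAT1_2 orange) and the GC and length trend fitted over all genes in each library (crosses). For ZEB2 the crosses lie near the dots in each library, while for ZEB1 the dots reach 1.08 and -1.04 in the second replicates, where the crosses are at 0.50 and -0.55.

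**Figure D4:**
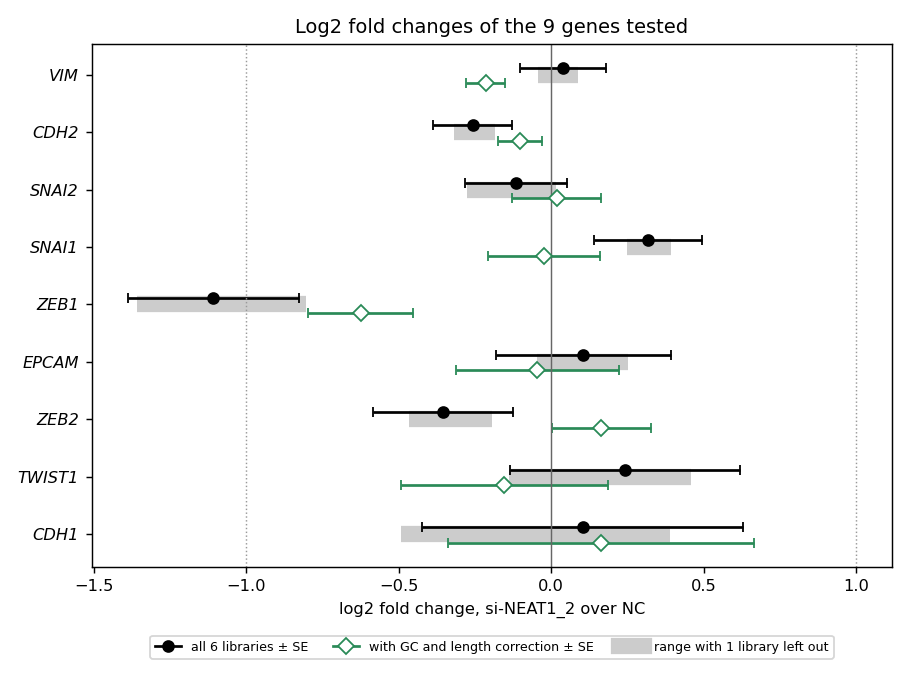
Log2 fold change of si-NEAT1_2 over NC for the 9 genes tested, with SE, from all 6 libraries (black) and after correction for GC content and length (green), with the range when 1 library is left out in grey and dotted lines at a 2-fold change. ZEB1 stays below 0 throughout, from -1.36 to -0.80 with 1 library left out and -0.62 after correction, while 6 of the 9 genes (VIM, SNAI1, SNAI2, TWIST1, ZEB2 and EPCAM) change sign with the correction.

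The Snail and ZEB factors bind the E-box letters CACCTG, read as CAGGTG on the other strand. Promoters from RefSeq on GRCh38.p14, reaching from 250 bases before to 50 bases after a transcript start, were held for 4 of the 10 members. Of the 35116 promoters in that set, 20.6% contained these letters at least once on either strand. ZEB1 had them in 2 of its 7 promoters, CDH2 in 0 of 2, VIM in 0 of 1 and ZEB2 in 0 of 1. The sites before a start of ZEB1 are shown because it is the member with the largest difference, and the capitals mark the E-box letters on the plus strand. The first base of the first lies at position -57 from its transcript start, and the other 2 belong to another ZEB1 promoter, at positions -242 and -85. That promoter also holds CAGGTG after its start, at position 34, which is not shown. A match of letters is a description and does not show that a factor is bound.
ZEB1 chr10:31318348-31318377: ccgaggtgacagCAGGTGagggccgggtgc
ZEB1 chr10:31318966-31318991: ccccaccaCACCTGaggaaaactttt
ZEB1 chr10:31319119-31319148: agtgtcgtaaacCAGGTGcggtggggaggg

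Other genes of the programme were taken from 2 wider lists of 28 genes each. Of the epithelial list 19 genes could be tested, and at an unadjusted p under 0.05 in edgeR's test 4 were higher in si-NEAT1_2 and 2 lower, where 11.2% and 12.9% of all genes were. None was called, and the lowest adjusted p was 0.170. The median log2 fold change was 0.21, against 0.01 over all genes, and 0.039 after the correction for GC content and length. Among those with a mean FPKM of at least 1, the highest were ELF3, an epithelial transcription factor, at 0.56 (SE 0.143), LSR, a protein of tricellular junctions, at 0.53 (SE 0.187) and SPINT2, a protease inhibitor, at 0.47 (SE 0.453, groups overlapping). The lowest were DSG2, a desmosomal cadherin, at -0.48 (SE 0.176), MAL2, a protein of apical transport, at -0.36 (SE 0.132) and DSP, the desmosomal plaque protein desmoplakin, at -0.35 (SE 0.191, groups overlapping). The list thus held differences in both directions, with junction proteins at either end. After the correction for GC content and length, ELF3 was at 0.50, LSR at 0.22, DSG2 at -0.15 and MAL2 at -0.11.

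Of the mesenchymal list 22 genes could be tested, and 3 were higher and 3 lower at an unadjusted p under 0.05, near the 11.2% and 12.9% of all genes. By edgeR 0 were called, and the median was 0.07, or 0.040 after the correction. The lowest were LOX, which crosslinks collagen, at -0.76 (SE 0.191), and the splicing regulators MBNL1, at -0.69 (SE 0.226), and QKI, at -0.49 (SE 0.181). Each of these was lower in every si-NEAT1_2 library than in any NC library by TMM CPM, as were 14.1% of all genes. They were picked as the lowest of the list, which favours such a separation. The highest were S100A4, a calcium-binding protein of motile cells, at 0.68 (SE 0.427), TWIST2, the paralog of TWIST1, at 0.65 (SE 0.284) and CDH6, a cadherin of the kidney epithelium, at 0.57 (SE 0.208), and in each of these the groups overlapped. After the correction for GC content and length LOX was at -0.39, MBNL1 at -0.26, QKI at 0.03, S100A4 at 0.35, TWIST2 at 0.24 and CDH6 at 1.05. ZEB1 lay below every tested gene of both lists.

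**Figure D5:**
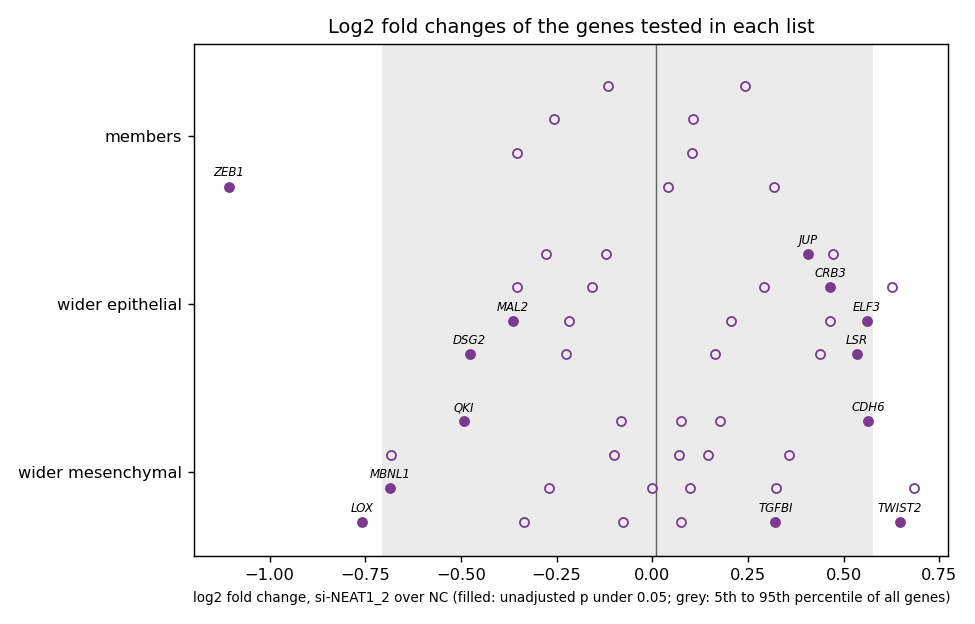
Log2 fold change of si-NEAT1_2 over NC for the tested genes of the 3 lists (members, wider epithelial, wider mesenchymal), offset vertically for legibility only, filled and named where the unadjusted p of edgeR's test was under 0.05, with the 5th to 95th percentile of all genes in grey (-0.70 to 0.57) and a line at their median. Both wider lists spread to both sides of the line, and ZEB1, at -1.11, is the farthest point to the left.

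Markers of other cell types were read in the same libraries, since fibroblasts share mesenchymal genes. Of 6 fibroblast markers 2 reached an FPKM of 1, LUM and COL1A1, and the summed FPKM of the 6 was 24.8 to 28.8 in NC and 18.9 to 22.2 in si-NEAT1_2. PDGFRA did not exceed 0.11 and DCN did not exceed 0.43 FPKM. Of 5 leukocyte markers only CD68 reached 1, and their sum was 11.8 to 13.3 in NC and 14.9 to 19.8 in si-NEAT1_2, with PTPRC at most at 0.11 and CD3E under 0.1. Of 4 endothelial markers 0 reached 1. The fibroblast sum was mostly LUM (22.64 to 25.04 in NC, 16.2 to 19.9 in si-NEAT1_2), and the other 5 markers together gave 2.14 to 3.78 in NC and 2.26 to 3.57 in si-NEAT1_2, which overlap. The leukocyte sum was mostly CD68 (11.6 to 13.2 and 14.9 to 19.6), and the other 4 gave at most 0.19 in any library. The part of LUM and CD68 in the values of the members was not tested.

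The group table gives 1 FPKM per group, with no replicates. How it was made and normalized, and from which libraries, is not stated. Its expected counts sum to 17678761 in NC and 19579897 in si-NEAT1_2, below each of the 6 libraries. Of these counts, 89.2% in each column were whole multiples of 1/3. The values of the group table for the members were unlike those of the libraries. Of the 8 members with an FPKM of at least 1 in either source, all 8 had an NC value outside the range of the 3 NC libraries, as did 87.5% of 11659 genes, so that the column is not the mean of the 3 deposited FPKM values. At least 2-fold higher in the group table than the mean of the NC libraries were 3 members (15.6% of all genes) and at least 2-fold lower were 3 (19.7%). PKP2, a gene of the wider epithelial list chosen after its values were seen, had a count of 0 in both columns. In the 6 libraries its TMM CPM was 17.5 to 22.4. Scaling counts above 0 cannot give 0, so the columns are not rescaled counts of the deposited libraries.

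ZEB2 was 4.59 times as high in the NC column as in the NC libraries (7.73 FPKM), TWIST1 4.74 times (4.82 FPKM) and ZEB1 2.03 times (12.6 FPKM). SNAI2 was 1.80 times as high, at 33.2 FPKM. CDH2, at 12.7 FPKM, was 3.73-fold higher in the libraries, SNAI1, at 0.913, was 5.41-fold higher, and EPCAM, at 0.147, was 10.3-fold higher. The 4 factors SNAI2, TWIST1, ZEB1 and ZEB2 thus stood higher in the NC column, while N-cadherin, Snail and EPCAM stood lower. The expected counts differed as well, with 580 for ZEB2 in the NC column against 166 to 194 in the NC libraries and 27.7 for SNAI1 against 176 to 241. VIM was 1.19 times as high, at 3234 FPKM, and CDH1 and ESRP1 had a count of 0.333 in each column.

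Between the 2 columns, 0 of the 6 members with an FPKM of at least 1 in this table reached a ratio of 2, where 3.55% of 11361 genes were at least 2-fold higher in si-NEAT1_2 and 14.3% at least 2-fold lower. ZEB1 was 12.6 FPKM in NC and 8.69 in si-NEAT1_2 (log2 ratio -0.54), the same direction as in the libraries. ZEB2 was 7.73 and 13.1 (log2 ratio 0.76), against -0.35 in the libraries. VIM was 3234 and 2276 (ratio 0.704) and TWIST1 4.82 and 3.50 (ratio 0.727). SNAI2 was 33.2 and 38.3 (ratio 1.16), CDH2 12.7 and 13.7 (ratio 1.08) and SNAI1 0.913 and 0.973. EPCAM rested on counts of 4.33 and 4. The order of the pair of ZEB genes differed too, with a ZEB1 to ZEB2 ratio of 1.64 in the NC column and 0.662 in the si-NEAT1_2 column.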

How the data were processed

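The data were 3 NC and 3 si-NEAT1_2 mRNA-seq libraries of K1 cells, grouped by their labels. The deposited expected counts are estimates per gene, not normalized, and FPKM was also deposited as the authors computed it. The paper names TopHat2 for mapping and RSEM for quantification. The submitters' processing notes list fastp 0.18.0, Bowtie2 2.2.8, HISAT2, StringTie 1.3.1 and GRCh38, with no role. Which of these tools made the deposited values is not known. How the expected counts and FPKM of the group table were made, and from which libraries, is not stated. The strand setting is not stated either. Antisense genes overlapping CDH1, CDH2, VIM, TWIST1, ZEB1 and ZEB2 are annotated, and their reads cannot be told apart. Positions, lengths and GC content came from GENCODE release 29.

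Expected counts were rounded, filtered with filterByExpr (13109 genes kept), given TMM factors and fitted with edgeR 4.0.16 (R 4.3.3; glmQLFit and glmQLFTest, the QL test). A call needed a Benjamini-Hochberg adjusted p below 0.05 with at least a 2-fold change. The QL test was also run on simulated data of 13109 genes in 3 libraries against 3, with 200 genes changed. It found 72.7% of those changed 2-fold and 92.3% of those changed 3-fold, with a false share of 5.50%. That count used the same adjusted p but a fold change limit lower than 2. It thus does not give the share found under the call rule above. The simulation held no trend of GC content or length. Exact two-sided permutation tests were used for single values. Alternatives were DESeq2 1.42.0, limma-trend (limma 3.58.1) on log2(FPKM + 1 or + 0.1), relative log expression or library totals alone, no filter or at least 10 counts in every library, a replicate block, the library code as a covariate, a correction for GC content and length (splines with 5 degrees of freedom each per library), and each library left out. The intervals cover counting error only. The genes named were the 10 members, the 3 highest and 3 lowest of each wider list with a mean FPKM of at least 1, and the 3 genes most like VIM and EPCAM at an average log2 CPM of 3 or more. The markers of other cell types named were chosen after their values were seen. The members and lists were chosen with earlier results of these data known.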

Additional observations from a re-analysis of the deposited data

How the results depend on the processing

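The log2 fold changes of ZEB1 and CDH2 kept their direction in all 17 alternatives, and ZEB1 passed the threshold in DESeq2 (-1.12) only. Those of the other 7 members tested changed sign in at least 1 alternative. The value for CDH1 was -0.0030 and -0.091 in the limma-trend fits (pseudocounts 1 and 0.1) and -0.46 with the library code as covariate, and ranged from -0.49 to 0.39 with 1 library left out (-0.49 without si-NEAT1_2 replicate 1). It was absent from the filter of at least 10 counts in every library. For VIM it was -0.027 without TMM, -0.026 with both limma-trend fits, and -0.21 with the GC and length correction, with or without the replicate block, and ranged from -0.044 to 0.087 with 1 library left out. For EPCAM it was -0.017 and -0.027 in the limma-trend fits, -0.045 with the correction and -0.038 with correction and block, and ranged from -0.046 to 0.25 with 1 library left out. With the correction, and with correction and block, it was -0.023 and -0.043 for SNAI1, 0.018 and 0.032 for SNAI2, -0.15 and -0.16 for TWIST1, and 0.16 and 0.16 for ZEB2. With 1 library left out, SNAI2 ranged from -0.28 to 0.018 (above 0 without NC replicate 3) and TWIST1 from -0.14 to 0.46. The cause of these changes was not tested.

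Genes called higher numbered 15 with DESeq2, which left 2289 genes without an adjusted p, 9 with no filter and 1 with the correction, and 0 to 32 with 1 library left out. Genes called lower numbered 1 without TMM, 45 with DESeq2, 9 with no filter, 1 with limma-trend on log2(FPKM + 0.1) and 3 with the correction, and 0 to 184 with 1 library left out. The counts of 32 and 184 were those without si-NEAT1_2 replicate 1. Members called lower numbered 1 with DESeq2. Members lower at an unadjusted p under 0.05 numbered 2 without TMM, with both limma-trend fits (ZEB1 and CDH2), with the correction and with correction and block (ZEB1 and VIM). Members higher numbered 0 to 1 with 1 library left out, the 1 being SNAI1 without si-NEAT1_2 replicate 2. Members higher with separated groups numbered 0 without TMM and 0 with the correction. Of all 13109 genes, those at an unadjusted p under 0.05 in either direction numbered 2904 without TMM. They numbered 2794 and 2769 in the limma-trend fits (pseudocounts 1 and 0.1), 2075 with the correction and 1279 with correction and block. Without si-NEAT1_2 replicate 2 they were 2118 of 13331 genes.

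Wider epithelial genes higher at an unadjusted p under 0.05 numbered 2 with the correction, 2 with correction and block and 1 to 5 with 1 library left out (1 without NC replicate 2). Those lower numbered 1 with the replicate block, 4 with the library code, 0 with the correction, 0 with correction and block and 0 to 3 with 1 library left out. Wider mesenchymal genes higher numbered 1 without TMM, with limma-trend at either pseudocount and with the correction, 0 with the replicate block, 1 with correction and block and 0 to 2 with 1 library left out. Those lower numbered 0 with correction and block and 1 to 3 with 1 library left out (1 without NC replicate 2). The counts of all genes in several of these fits are given above. With the replicate block 1538 of 13109 genes were under this limit in either direction, and with the library code 3732. Without NC replicate 2 it was 1074 of 13300 genes.

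The paper describes the RNA as coming from 3 pairs of NC and si-NEAT1_2 cells, while the labels give replicate numbers only. The correlations of same-numbered deviations were -0.28, -0.36 and -0.0080, and no library correlated best with its own number. With 3 libraries per group, and opposite GC and length trends in the second replicates, these correlations cannot tell whether the samples were paired. With the replicate block, ZEB1 was at -1.07 (edgeR QL test, adjusted p = 0.401) and the genes at an unadjusted p under 0.05 numbered 1538, against 3165 without it. Low counts limit CDH1, ESRP1, TWIST1 and EPCAM, of which fewer than 100 counts were seen in each library.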

Other observations

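Several epithelial and mesenchymal genes outside the members, chosen after their values were seen, were listed at levels in the group table that differ widely from the 6 libraries. TAGLN, which encodes an actin-binding protein of smooth muscle and myofibroblasts, was at 5.48 FPKM in the NC column and 5.37 in the si-NEAT1_2 column, and between 378 and 536 in the libraries. THY1, a surface protein of fibroblasts and other stromal cells, was at 58.3 and 20.9 in the columns and between 0.28 and 0.67 in the libraries. MAL2 was at 0.76 and 0.17 in the columns and between 52.0 and 89.3 in the libraries, and CRB3, which encodes an apical polarity protein, was at 0.08 and 0.10 against 14.2 to 22.9. How the group table was made and normalized is not stated, and these differences were not tested.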
